A study of Rattus norvegicus with 22 samples.

Results

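The calcaneal tendon (CT) of rats was compared between 14 days (14D) and 3 days (3D) after an injury of the gastrocnemius (GA) muscle that pulls on it, over 22 target genes of the tendon matrix and its regulation. The samples were chosen by their labels alone, and they were 11 of the 22 tendons of the series, 5 from 3D and 6 from 14D, while all 22 genes were described. The animals were male Wistar rats, 4 months old at the start, and in 3D and 14D both bellies of the GA had been cryo-lesioned with an iron bar cooled in liquid nitrogen, so that the lesion was made in the muscle and not in the tendon. The control (C) rats were not exposed to injury. The other tendons of the series were 5 from C and 6 from rats 28 days (28D) after the same GA injury. The methods name no sham operation for C and give 6 animals per group. Total RNA came from the whole tendon, and qRT-PCR with TaqMan assays gave for each gene and rat a cycle threshold (Ct), which counts the cycles of amplification needed to reach a fixed fluorescence, so that more mRNA gives a lower Ct. The comparison asks how the mRNA levels of the tendon moved between the early phase after muscle injury and the second week.

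A tendon transmits the force of a muscle to bone through parallel fibres of type I collagen, which are made and maintained by a sparse population of tenocytes. Type III collagen, small leucine rich proteoglycans and matricellular proteins set how the fibrils assemble, and matrix metalloproteinases (MMP) with their tissue inhibitors (TIMP) govern the turnover. The transcription factors scleraxis (SCX) and Mohawk (MKX) and the growth factor TGF-β1, acting through SMAD-2 and SMAD-3, drive collagen genes in tendon cells. The whole tissue was extracted, so that fewer cells of a type and less mRNA per cell cannot be told apart. The panel held the tenocyte markers SCX, MKX, tenomodulin (TNMD) and COL1A1, each measured in all tendons of 3D and 14D except COL1A1 in replicate 3 of 3D, and no marker of muscle, fat, endothelial or immune cells.

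Log2 expression is minus ΔCt, where ΔCt is the Ct of the gene minus that of the reference gene RPLP0, centred for every gene on the mean of C, and 1 unit corresponds to a 2-fold difference. Of the 242 values of 3D and 14D, 231 were used. Left out were 10 values, all in 3D, that equalled the average of the remaining animals in the group, 8 of them from replicate 3, and 1 blank well. One limma model was fitted to all 4 groups, and a gene passed at an adjusted p under 0.05 (Benjamini-Hochberg, over the 22 genes and all 6 pairs of groups). Beside it, the animals of each pair were permuted exhaustively for every gene, which gives the exact permutation p, two-sided and unadjusted unless stated.

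Between 3D and 14D, 6 of the 22 target genes rose (27.3% of the genes tested) and 0 fell. These were COL1A1, the α1 chain of type I collagen, fibronectin (FN), the proteoglycan decorin (DCN), the protease MMP-2, the inhibitor TIMP-2 and the transcription factor MKX, with differences from 1.18 for MMP-2 to 3.39 for COL1A1. An unadjusted limma p under 0.05 held for 6 genes, all of them higher in 14D, and an exact p under 0.05 for 6. The difference was positive in 18 of the 22 genes, with a median of 0.71, and negative in TIMP-1, COL3A1, ADAMTS-4 and IL-6, of which the last 3 turned positive with the Ct alone. Every 14D animal stood above every measured 3D animal in 3 genes, COL1A1, FN and MMP-2, which is 13.6% of the panel. Each of these had values of only 4 tendons of 3D, since replicate 3 was left out. In 0 genes did every 14D animal stand below. All 26 measured values of the 6 genes in 3D lay below the mean of C, against 9 of 36 in 14D, but these genes were picked by their difference between 3D and 14D. Over all 22 genes the share of measured values below the mean of C was 74.7% in 3D and 45.5% in 14D. After the same adjustment no exact p passed, the lowest being 0.0786. The calls also depend on RPLP0: with the Ct alone, or with the mean of the 8 target genes measured in every animal as reference, only COL1A1 passed. With the Ct alone the differences of the other 5 genes were larger than with RPLP0, from 2.63 for TIMP-2 to 3.49 for DCN. With the mean of the target genes they were smaller, at 1.27 for DCN, 1.14 for FN, 0.92 for TIMP-2, 0.86 for MKX and 0.54 for MMP-2. This reference does not remove RPLP0 in replicate 5 of 3D. There the 8 genes had ΔCt against a RPLP0 Ct of 28.5, but COL1A1, DCN, FN, MMP-2 and TIMP-2 against 27.1. Its values for the latter genes are thereby 1.34 too low, which enlarges their differences. MKX is itself among the 8 genes. A fit of this reference from Ct throughout was not run. The median difference of the 22 genes was 2.11 with the Ct alone and 0.07 with the mean of the target genes.

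**Figure D1:**
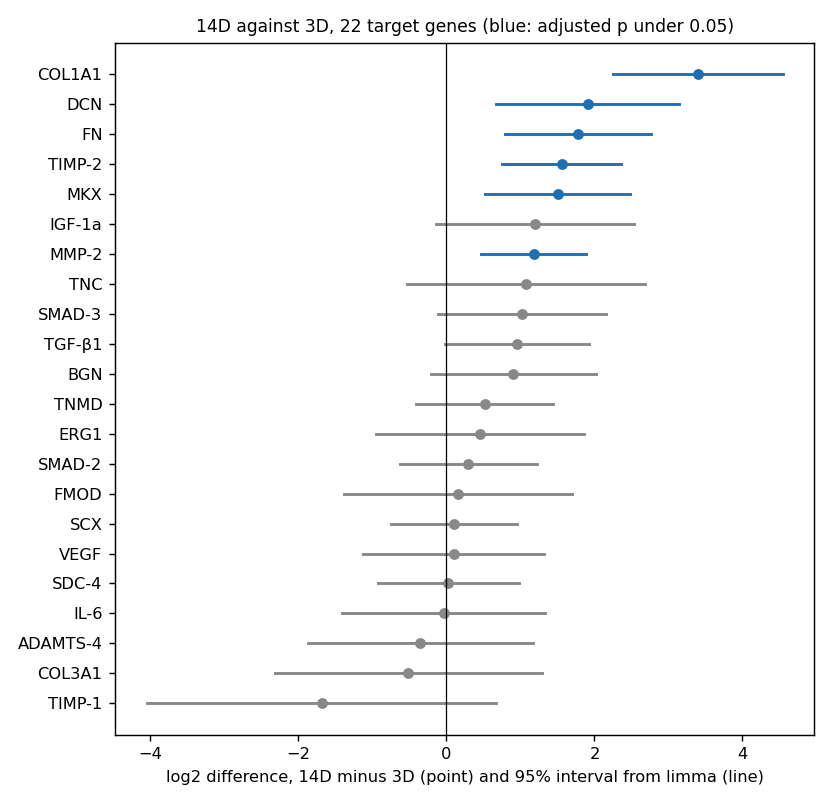
Log2 difference of 14D minus 3D for the 22 target genes (points, horizontal axis) with its 95% interval from limma (lines), ordered by size. Blue marks the 6 genes that passed, all to the right of 0, with COL1A1 at 3.39, and TIMP-1 at the bottom has the widest interval.

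The reference gene and the state of the animals bear on all of these values. RPLP0, which encodes a ribosomal protein, had a mean Ct of 28.2 ± 2.37 in 3D (SD, n = 5) against 27.1 ± 1.15 in 14D (SD, n = 6), a difference of -1.07 cycles (exact permutation p = 0.405). Replicate 2 of 3D stood apart, with a RPLP0 Ct of 32.3 and a median target Ct of 35.3, while the other tendons had median target Cts of 28.2 to 29.9 in 3D and 27.5 to 30.6 in 14D. It also held 12 of the 13 wells of 3D with a Ct above 35 and was the lowest 3D animal in 17 of its 21 measured genes. Without it the RPLP0 Cts of 14D and 3D differed by -0.056 (exact permutation p = 0.938). The mean log2 expression over the measured genes was then 0.35 higher in 14D than in 3D, against 0.66 with it. Over the 8 genes measured in every animal these differences were 0.32 and 0.64. Replicate 3 of 3D had only 14 measured genes, and both averages hold replicate 5 of 3D with the RPLP0 Cts given below. Without replicate 2 of 3D, 3 of the 6 genes passed, COL1A1, TIMP-2 and FN. Replicate 5 of 3D had ΔCt values taken against 2 different RPLP0 Cts, its own 27.1 for COL1A1, DCN, FN, MMP-2 and TIMP-2 among others, and 28.5, equal to the mean of the other 3D animals, for MKX and 10 other measured genes. With its own RPLP0 Ct for all its genes the same 6 genes passed, and with 1 RPLP0 Ct per animal, that of most of its genes and thus 28.5 here, only COL1A1 did. The part of RPLP0 and of these animals in the differences was not tested further.

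**Figure D2:**
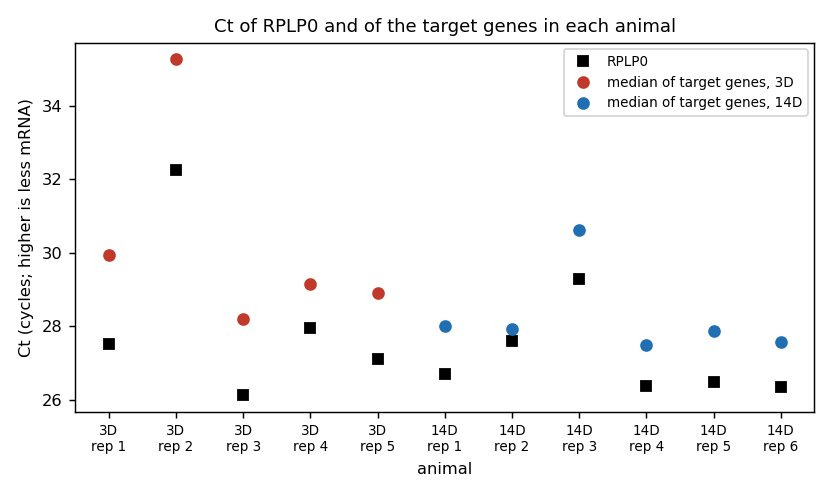
Ct in cycles (vertical axis, higher is less mRNA) of RPLP0 (squares) and the median Ct of the target genes (circles, red 3D and blue 14D) in each tendon. Replicate 2 of 3D lies above all other animals in both, at 32.3 and 35.3.

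Among the fibrillar collagens, COL1A1 had the largest difference of the panel and COL3A1 did not follow it. In 3D COL1A1 stood at -3.00, -3.65, -1.83 and -2.49 in replicates 1, 2, 4 and 5. In 14D it stood at 0.11, 1.44, -0.15, 0.57, 0.85 and 1.09 in replicates 1 to 6. All 6 tendons of 14D were thus above all 4 of 3D. The difference was 3.39 (95% interval 2.25 to 4.54, SE 0.55), a 10.5-fold rise (limma, adjusted p = 0.00053, exact permutation p = 0.00476, the smallest that 6 against 4 animals allow). COL1A1 passed without each of the 22 animals in turn, at 3.09 to 3.70, and under the Ct alone (4.98), the mean of the target genes (2.76) and 1 RPLP0 Ct per animal (3.06). The 2.76 holds the RPLP0 mismatch of replicate 5 of 3D given above, which enlarges it. On linear values COL1A1 did not pass, with a difference of 1.52 times the C level (limma, adjusted p = 0.0662).

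COL3A1, the chain of type III collagen that is laid down in early repair, ranged from -3.91 to 0.14 in 4 tendons of 3D and from -3.88 to 0.49 in 14D, so that the groups overlapped. Its difference was -0.51 (95% interval -2.32 to 1.30; limma, adjusted p = 0.780). Replicate 3 of 14D, at 0.49, was the 1 tendon of 14D above all of 3D, and the other 5 stood at -1.80 or lower. The ratio of COL1A1 to COL3A1 within an animal needs no reference gene. On the log2 scale, with C at 0, it was -1.22 ± 1.12 in 3D (SD, n = 3) against 2.65 ± 1.82 in 14D (SD, n = 6), and 5 of the 6 tendons of 14D lay between 2.90 and 3.86, above all 3 of 3D. The sixth, replicate 3, was at -0.98, within the range of 3D.

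**Figure D3:**
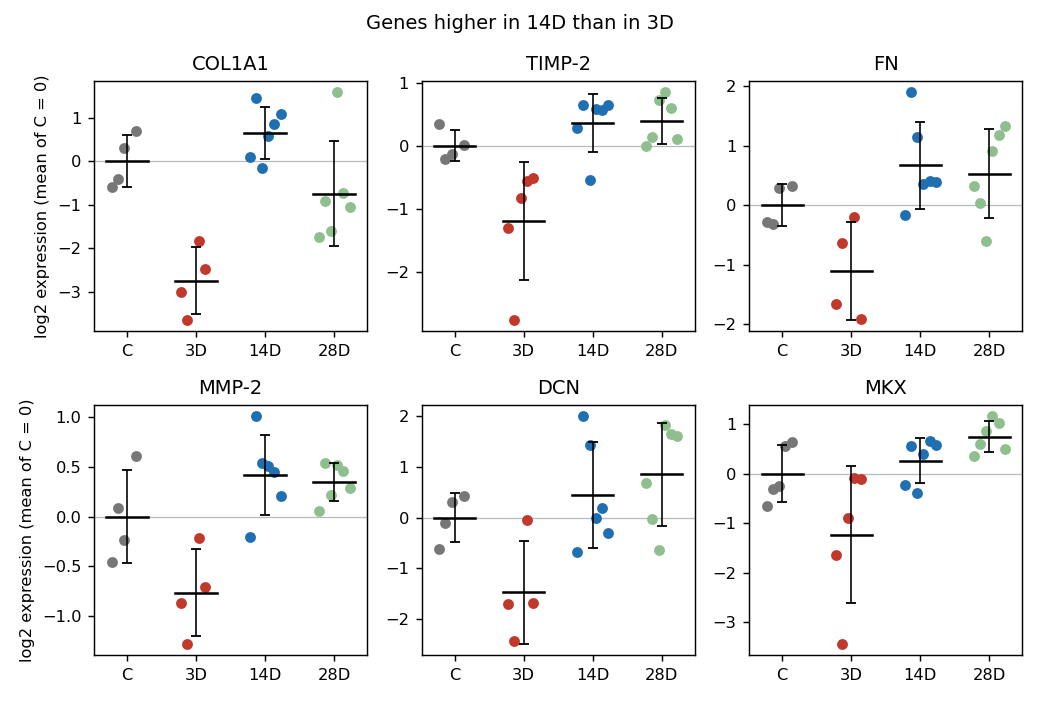
Log2 expression (vertical axis, mean of C at 0) of the 6 genes that rose from 3D to 14D, by group. Points are single tendons, thick lines group means and error bars 1 SD. All 26 points of 3D lie below 0, and 14D and 3D do not overlap in COL1A1, FN and MMP-2, each with 4 points of 3D.

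Of the small leucine rich proteoglycans, DCN rose while biglycan (BGN) and fibromodulin (FMOD) did not pass. DCN binds collagen fibrils and limits their lateral growth. It stood at -1.71, -2.44, -0.04 and -1.69 in replicates 1, 2, 4 and 5 of 3D, and at -0.67, 2.0, 1.42, -0.01, 0.19 and -0.30 in replicates 1 to 6 of 14D. Replicate 4 of 3D reached into the range of 14D, and 4 of the 6 tendons of 14D were above all of 3D. The difference was 1.91 (95% interval 0.67 to 3.14, SE 0.60), a 3.75-fold rise (limma, adjusted p = 0.0403, exact permutation p = 0.0333). This call was the least stable beside that of MKX, since it was lost in 12 of the 22 fits that left out 1 animal, at adjusted p up to 0.166 without replicate 2 of 3D.

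BGN, a close relative of DCN, stood at -0.94, -1.21, -0.38 and -1.27 in replicates 1, 2, 4 and 5 of 3D and at -1.08, 1.48, 0.09, -0.43, -0.06 and -0.28 in 14D. Its difference was 0.90 (95% interval -0.21 to 2.02, SE 0.54; limma, adjusted p = 0.333, exact permutation p = 0.0762), and 4 of 6 tendons of 14D were above all of 3D. FMOD, which guides the early steps of fibril assembly, differed by 0.16 (95% interval -1.38 to 1.69), with 14D wholly within the range of 3D, from -2.27 to 1.83. With the own RPLP0 Ct of replicate 5 of 3D its difference was 0.42. The log2 ratio of DCN to BGN within an animal was -0.63 ± 0.66 in 3D (SD, n = 4) against 0.37 ± 0.46 in 14D (SD, n = 6), with 4 of the 6 tendons of 14D above all of 3D.

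The proteases and their inhibitors split. MMP-2, a gelatinase that cleaves denatured collagen, and TIMP-2, its inhibitor, which also helps to activate it at the cell surface, both rose, and TIMP-1 and the aggrecanase ADAMTS-4 had negative differences that did not pass. TIMP-2 stood at -1.30, -2.76, -0.83, -0.57 and -0.51 in replicates 1 to 5 of 3D. In 14D it stood at 0.29, 0.65, -0.54, 0.58, 0.57 and 0.65 in replicates 1 to 6. All tendons of 14D except replicate 3 were above all of 3D. The difference was 1.56 (95% interval 0.76 to 2.36, SE 0.39), a 2.94-fold rise (limma, adjusted p = 0.0145, exact permutation p = 0.00649). TIMP-2 passed without each of the 22 animals in turn, with the highest adjusted p at 0.0438, and had values of all 5 tendons of 3D.

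MMP-2 stood at -0.86, -1.27, -0.21 and -0.70 in replicates 1, 2, 4 and 5 of 3D and at -0.20, 1.01, 0.53, 0.51, 0.45 and 0.21 in 14D. The groups did not overlap, but replicate 1 of 14D was only just above replicate 4 of 3D. The difference was 1.18 (95% interval 0.47 to 1.89, SE 0.34), a 2.26-fold rise (limma, adjusted p = 0.0291, exact permutation p = 0.00476). It was lost in 7 of the 22 fits without 1 animal, at adjusted p up to 0.100 without replicate 1 of 3D. The log2 ratio of MMP-2 to TIMP-2 was 0.52 ± 0.70 in 3D (SD, n = 4) against 0.05 ± 0.59 in 14D (SD, n = 6), a difference within the spread of the animals.

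TIMP-1, an inhibitor that is induced by injury and cytokines in many tissues, stood at 0.13, -1.21, -2.30, 0.17 and 5.47 in replicates 1 to 5 of 3D and at -0.90, -1.60, -1.54, -0.71, -0.21 and -2.45 in 14D. Its difference was -1.69 (95% interval -4.05 to 0.67, SE 1.14; limma, adjusted p = 0.403, exact permutation p = 0.186), and without replicate 5 of 3D it was -0.43. With the own RPLP0 Ct of that replicate it was -1.42. All 6 tendons of 14D were below the mean of C, and 3 of the 5 of 3D above it. The log2 ratio of TIMP-1 to TIMP-2 was 1.20 ± 2.19 in 3D (SD, n = 5) against -1.78 ± 0.89 in 14D (SD, n = 6); 4 tendons of 3D were above all of 14D and replicate 3 of 3D, at -1.65, lay among them. ADAMTS-4 differed by -0.35 (95% interval -1.88 to 1.17), and 5 of the 6 tendons of 14D lay within the range of 3D, from -0.22 to 2.83. The 2.83 is replicate 5 of 3D, at 1.49 with its own RPLP0 Ct, where the difference was -0.09.

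**Figure D4:**
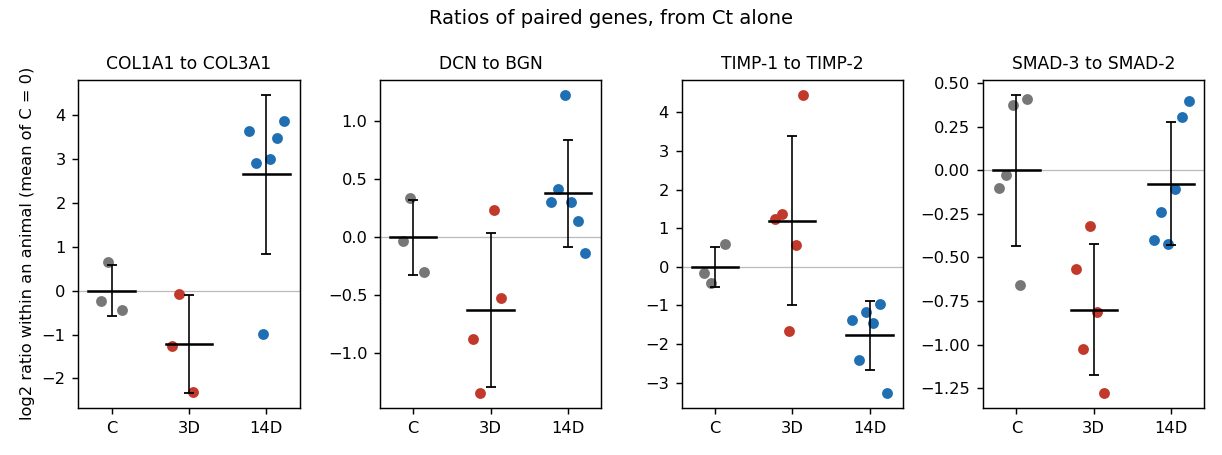
Log2 ratio of paired genes within an animal, from Ct alone (vertical axis, mean of C at 0), in C, 3D and 14D. Points are single tendons, thick lines group means and error bars 1 SD. In COL1A1 to COL3A1, 5 of 6 tendons of 14D lie at 2.90 or above and replicate 3 at -0.98.

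Of the 3 matricellular and adhesion genes, FN rose. Fibronectin forms the provisional matrix to which cells attach and on which collagen is laid down. It stood at -1.67, -0.64, -0.20 and -1.92 in replicates 1, 2, 4 and 5 of 3D, and at -0.17, 1.89, 1.14, 0.35, 0.40 and 0.38 in replicates 1 to 6 of 14D. All tendons of 14D were above all of 3D, replicate 1 of 14D by the least. The difference was 1.77 (95% interval 0.79 to 2.76, SE 0.48), a 3.42-fold rise (limma, adjusted p = 0.0226, exact permutation p = 0.00476). FN failed to pass without replicate 1 of 3D (adjusted p = 0.100) and without replicate 5 of 3D, where its difference was 1.50. Tenascin C (TNC), a matrix protein of loaded and healing tendon that reduces cell adhesion, stood between -1.32 and -0.36 in 4 tendons of 3D and at 2.82 in replicate 5, against -0.28 to 2.39 in 14D. Its difference was 1.08 (95% interval -0.54 to 2.69; limma, adjusted p = 0.441), and without replicate 5 of 3D it was 1.84, at an adjusted p of 0.0864. The cell surface proteoglycan syndecan-4 (SDC-4) differed by 0.03 (95% interval -0.93 to 0.98). With the own RPLP0 Ct of replicate 5 of 3D the difference was 1.34 for TNC and 0.29 for SDC-4.

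The tendon lineage genes were MKX, SCX, TNMD and ERG1, the last paired in the deposited table with the symbol Egr1. MKX, a homeobox factor needed for type I collagen production in mouse tendon, was the 1 of these 4 that rose. It stood at -1.65, -3.43, -0.89, -0.08 and -0.11 in replicates 1 to 5 of 3D and at -0.23, 0.57, -0.39, 0.41, 0.67 and 0.58 in replicates 1 to 6 of 14D. Replicates 4 and 5 of 3D were near the mean of C, although with its own RPLP0 Ct replicate 5 was at -1.45, and 4 of 6 tendons of 14D were above all of 3D. The difference was 1.50 (95% interval 0.52 to 2.48, SE 0.47), a 2.83-fold rise (limma, adjusted p = 0.0403, exact permutation p = 0.0173). Without replicate 2 of 3D it was 0.95 (limma, adjusted p = 0.120), and it was lost in 12 of the 22 fits without 1 animal. With the own RPLP0 Ct of replicate 5 of 3D it was 1.77 (limma, adjusted p = 0.0107).

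SCX, which switches on collagen and TNMD genes in tendon progenitors, differed by 0.10 (95% interval -0.75 to 0.95), with all of 14D between -0.17 and 0.57 and inside the range of 3D, from -1.68 to 1.07. The 1.07 is replicate 5 of 3D, at -0.27 with its own RPLP0 Ct, where the difference was 0.37. The highest value of 3D would then be 0.40 in replicate 4, below replicate 6 of 14D at 0.57. TNMD, a membrane protein of mature tenocytes, differed by 0.51 (95% interval -0.41 to 1.44), and 1 of 6 tendons of 14D was above all of 3D. With the own RPLP0 Ct of replicate 5 of 3D its difference was 0.78. ERG1 differed by 0.46 (95% interval -0.95 to 1.86), with the 14D animals between -0.99 and 0.26 and those of 3D between -2.08 and 1.50. The 1.50 is again replicate 5 of 3D, at 0.16 with its own RPLP0 Ct, where the difference was 0.72. The SD was larger in 3D than in 14D for all 4 of these genes, with a median of 1.21 against 0.47.

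Promoters of 15 of the 22 genes were found in a RefSeq table of the GRCr8 assembly, which holds 250 bases before and 50 after a gene's start, and among the 6 genes that rose these were Timp2 (chr10:104089165-104089464, minus strand) and Mkx (chr17:59851111-59851410, minus strand). They are shown because only these 2 of the 6 genes had a promoter there. TIMP-2 and MKX had their 4 highest values in replicates 2, 4, 5 and 6 of 14D and their lowest in replicate 2 of 3D. This is not particular to them. COL1A1 had the same order, and replicate 2 of 3D was the lowest 3D animal in 17 of its 21 measured genes. Capitals mark matches, on either strand, to CANNTG (the E-box that SCX binds), CAGAC (SMAD3), GGGCGG (the GC box of SP1), CCAAT and TATAAA.
Timp2: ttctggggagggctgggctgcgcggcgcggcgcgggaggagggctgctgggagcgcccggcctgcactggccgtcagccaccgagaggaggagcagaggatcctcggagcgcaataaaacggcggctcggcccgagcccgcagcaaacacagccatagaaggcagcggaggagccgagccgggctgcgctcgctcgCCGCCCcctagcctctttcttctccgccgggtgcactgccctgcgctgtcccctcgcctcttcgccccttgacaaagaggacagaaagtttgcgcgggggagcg
Mkx: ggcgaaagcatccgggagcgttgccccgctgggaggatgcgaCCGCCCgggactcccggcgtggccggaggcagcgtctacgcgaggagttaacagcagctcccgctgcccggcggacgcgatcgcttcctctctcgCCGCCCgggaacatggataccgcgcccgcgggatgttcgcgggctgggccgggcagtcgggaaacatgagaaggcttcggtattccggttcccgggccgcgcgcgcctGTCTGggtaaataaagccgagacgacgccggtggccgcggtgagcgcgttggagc
Timp2 held 1 GC box, read on the other strand, whose first base is 54 bases before the start. Mkx held 2 GC boxes, also on the other strand, 208 and 113 bases before the start, and 1 CAGAC on the other strand 5 bases before it, and neither window held the other 3 motifs. The Mkx window shown is the one at the start of the gene as annotated, and the table holds another for Mkx, chr17:59850908-59851207, with 0 GC boxes and 2 CAGAC. Among all 33469 promoters listed there, 33.1% held GGGCGG, 50.1% CAGAC, 72.1% CANNTG, 37.5% CCAAT and 14.2% TATAAA. These are matches of letters and no evidence of binding.

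None of the 3 growth factors, the 2 signal carriers or the cytokine passed. TGF-β1, the main inducer of matrix genes in tendon cells, stood at -0.33, -2.95, 0.02 and 0.15 in replicates 1, 2, 4 and 5 of 3D and at -0.30, 0.71, -0.12, 0.07, 0.36 and 0.33 in 14D. Its difference of 0.95 (95% interval -0.02 to 1.92, SE 0.47; limma, adjusted p = 0.239, exact permutation p = 0.0810) rested on replicate 2 of 3D, without which it was 0.23. IGF-1a, a growth factor for tenocytes, stood at -0.20, -1.87, 0.52 and -0.78 in replicates 1, 2, 4 and 5 of 3D and at -0.99, 2.53, 2.30, 0.15, 0.18 and -0.49 in 14D. Replicates 2 and 3 of 14D were its only tendons above all of 3D. The difference was 1.20 (95% interval -0.14 to 2.54, SE 0.64; limma, adjusted p = 0.275, exact permutation p = 0.205). VEGF, a growth factor for blood vessels, differed by 0.10 (95% interval -1.13 to 1.32), with medians of both groups below C.

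SMAD-3, a carrier of the TGF-β signal, stood at -1.27, -2.35, -0.48, -0.83 and -0.17 in replicates 1 to 5 of 3D and at -0.34, 0.12, -1.32, -0.06, 0.91 and 0.66 in replicates 1 to 6 of 14D. All 5 tendons of 3D were below the mean of C, and 4 of the 6 of 14D were above all of them. The difference was 1.02 (95% interval -0.12 to 2.15, SE 0.55; limma, adjusted p = 0.275, exact permutation p = 0.0714). Replicate 5 of 3D would be at -1.51 with its own RPLP0 Ct, where the difference was 1.29 (limma, adjusted p = 0.128). SMAD-2, the other carrier, differed by 0.29 (95% interval -0.63 to 1.22), with 14D within the range of 3D. The highest value of 3D, 1.11 in replicate 5, would be -0.23 with its own RPLP0 Ct, where the difference was 0.56. The log2 ratio of SMAD-3 to SMAD-2, which needs no reference gene, was -0.80 ± 0.38 in 3D (SD, n = 5) against -0.08 ± 0.35 in 14D (SD, n = 6), and 4 of 6 tendons of 14D were above all of 3D. IL-6, an inflammatory cytokine, was measured in only 2 tendons of 3D, at -0.19 and -0.01, and ranged from -1.11 to 0.58 in 14D, so that its difference of -0.04 (95% interval -1.41 to 1.33) leaves large changes in either direction within the interval. The -0.01 is replicate 4 of 3D, whose IL-6 was taken against a RPLP0 Ct of 27.3 and its other genes against 27.9. With 1 RPLP0 Ct per animal the IL-6 difference was -0.36.

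**Figure D5:**
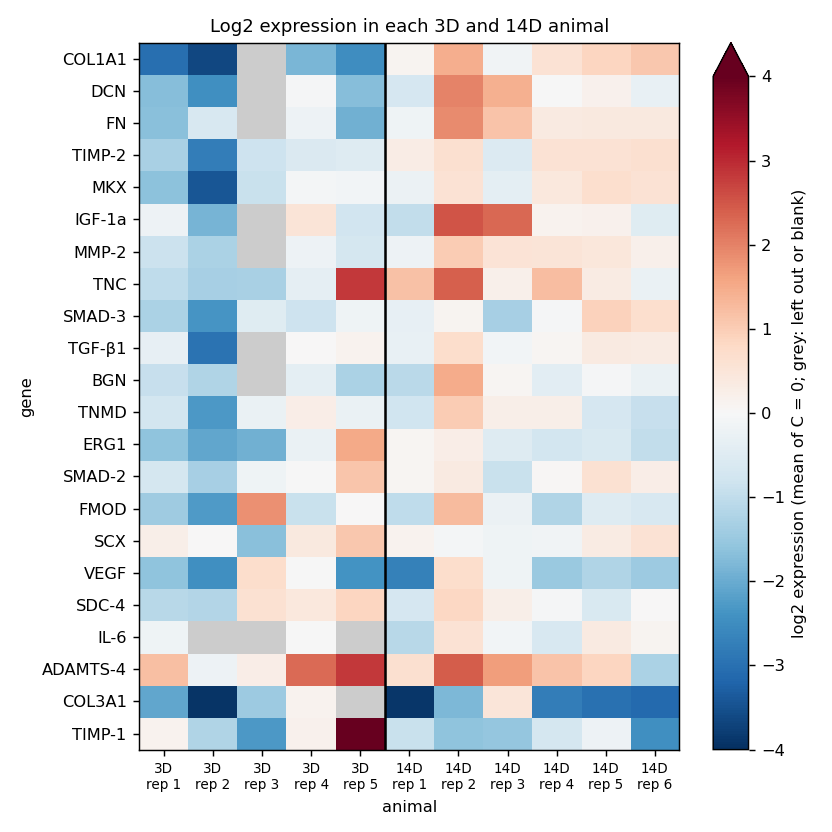
Log2 expression (colour, mean of C at 0, scale from -4 to 4) of the 22 genes (rows, ordered by the difference) in each tendon of 3D (left of the line) and 14D (right). Grey marks values left out or blank. Replicate 2 of 3D is blue in most rows, and TIMP-1 in replicate 5 of 3D, at 5.47, exceeds the scale.

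The animals of a group did not move as one. The SD was larger in 3D than in 14D for 18 of the 22 genes, with a median of 1.01 against 0.75, and without replicate 2 of 3D for 10 of 22, with a median of 0.83. Replicate 5 of 3D was the highest of its group in 10 genes, as was replicate 4 in 10 others. With its own RPLP0 Ct replicate 5 would not be the highest in ADAMTS-4, SMAD-2, SMAD-3, SCX and SDC-4, which are among its 10. Replicate 5 was above every 14D tendon in 7 genes, TIMP-1, TNC at 2.82, ADAMTS-4 at 2.83, ERG1 at 1.50, SMAD-2 at 1.11, SCX at 1.07 and SDC-4 at 0.85, all of them among the 11 whose ΔCt was taken against 28.5. With its own RPLP0 Ct these values would be 1.34 lower, and of the 7 only TIMP-1, at 4.13, would stay above every 14D tendon. In 14D replicate 2 was the highest in 16 of 22 genes, replicate 1 the lowest in 10 and replicate 3, with the latest RPLP0 Ct of its group at 29.3, the lowest in 6. Averaged over the measured genes, 14 to 22 per tendon in 3D and 22 in 14D, log2 expression was -0.68 ± 0.84 in 3D (SD, n = 5) against -0.01 ± 0.49 in 14D (SD, n = 6).

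The differences from C share the C tendons with each other and the 3D or 14D tendons with the comparison of 14D with 3D, so that they are not independent of it. In 3D against C, 1 gene passed, COL1A1 (4.55% of the genes tested), lower by the difference of -2.74 (95% interval -4.0 to -1.48; limma, adjusted p = 0.0117). At an unadjusted limma p under 0.05 there were 5, all lower in 3D, namely COL1A1, DCN, TIMP-2, MKX and FN, and at an exact p under 0.05 there were 3. In 14D against C 0 genes passed in limma, with 1 at an unadjusted p under 0.05, COL3A1, and 2 at an exact p under 0.05. COL1A1 in 14D had a difference from C of 0.65 (95% interval -0.50 to 1.80; limma, adjusted p = 0.516). For the other 5 genes that rose from 3D to 14D, the difference from C was -1.19 in 3D and 0.36 in 14D for TIMP-2, -1.11 and 0.67 for FN, -0.76 and 0.42 for MMP-2, -1.47 and 0.44 for DCN and -1.23 and 0.27 for MKX. None of these 10 differences passed after adjustment. COL3A1 had a difference from C of -1.83 in 3D and of -2.34 in 14D (limma, adjusted p = 0.275 and 0.0940). From 14D to 28D 0 of the 22 genes passed in limma, with 2 at an unadjusted p under 0.05 and 3 at an exact p under 0.05, and COL1A1 had a difference of -1.40 (95% interval -2.42 to -0.37; limma, adjusted p = 0.0786).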

How the data were processed

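The Ct was deposited without normalization and averages technical duplicates, as the methods state. From it the authors subtracted the Ct of RPLP0, which gives the deposited ΔCt on a log2 scale. They also deposited a fold change, a ratio to C, which the methods give as 2 to the power of minus ΔΔCt. Some deposited ratios do not follow from the ΔCt, also in 14D. DCN in replicate 2 of 14D had a log2 expression of 2.00 but a deposited ratio of 1.01. TIMP-2 in replicate 3 of 14D had -0.54 but a deposited ratio of 1.44. Groups and replicate numbers came from the labels. The genes and lists were chosen with earlier results of these data known, and all 22 genes are named, with every animal's value for the 6 that passed and for the 5 with the smallest p that did not.

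A Ct or ΔCt that equalled, within 1e-06, the average over the remaining animals of the group was taken as filled in (22 of the 484 values of the 22 animals) and left out with 2 blanks, so that 460 were used. For replicate 1 of C the DCN Ct repeats that of BGN and was left out where Ct was used alone. The RPLP0 Ct is Ct minus ΔCt. In replicate 4 of 3D it was 27.9 for 21 genes and 27.3 for IL-6. Group means were fitted by limma 3.58.1 (R 4.3.3) without covariates, and its code was tested on simulated panels. No counts are involved; precision is limited by the 2 to 6 animals measured for a gene in a group. Alternatives were the reference gene, left out, late and blank wells, linear values, the samples in the model, the adjustment and test (among them an analysis of variance, 1 of the tests in the methods), array weights, a block for the replicate number, and the omission of single animals. The own RPLP0 Ct of replicate 5 of 3D, and 1 own RPLP0 Ct per animal, were added after seeing the data.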

Additional observations from a re-analysis of the deposited data

Results flagged for a closer look

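In 4 of the 45 sets of 4 to 6 tendons examined, 1 gene in 1 group each, 1 animal stood far from the others of its group, its gap to the nearest being above Dixon's critical value. Chance flags about 1 in 20 such sets. TIMP-2 was at -0.54 in replicate 3 of 14D, with the other 5 at 0.29 to 0.65. SMAD-2 in the same tendon was at -0.90, with the others at 0.05 to 0.60. TGF-β1 was at -2.95 in replicate 2 of 3D, the tendon with the latest RPLP0 Ct, with the others at -0.33 to 0.15. TNC was at 2.82 in replicate 5 of 3D, with the others at -1.32 to -0.36, and at 1.48 with the animal's own RPLP0 Ct.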

How the results depend on the processing

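The 6 calls were kept with the deposited ΔCt or fold change table in full, blank wells at Ct 40, adjustment over the 22 genes of the pair, an analysis of variance with Bonferroni adjustment, array weights and either use of the own RPLP0 Ct of replicate 5 of 3D, and no alternative added a call. That analysis of variance adjusted over the 6 pairs within a gene but not over the genes. It left out the tests that the methods use for uneven variance or non-normal data. The 2 deposited tables in full bring back the values taken as filled in. Averages of other animals add to n and can narrow the spread, so these 2 settings are no independent check of the calls. With the full ΔCt COL1A1 kept its difference of 3.39, at an adjusted p of 8.3e-05 (limma) against 0.00053. With Ct alone, the mean of the 8 target genes measured in every animal, or 1 RPLP0 Ct per animal (the value of most of its genes), 1 gene passed, COL1A1. The differences of the other 5 were then 2.63 to 3.49 with Ct alone, 0.54 to 1.27 with the mean of the target genes and 0.84 to 1.57 with 1 RPLP0 Ct per animal, where MKX stayed at 1.50. The mean of the target genes was taken from the deposited ΔCt, so the 2 RPLP0 Cts of replicate 5 of 3D do not cancel in it. On linear values 2 passed, MMP-2 and TIMP-2, and with exact p-values adjusted over all genes and pairs 0 (6 at an unadjusted exact p under 0.05). With only 3D and 14D in the model 4 passed, and with Ct above 35 missing 5. Leaving out each animal in turn gave 2 to 6 calls: 2 without replicate 1 of 3D, and 3 without replicate 2 or 5 of 3D, replicate 2, 4 or 5 of 14D, or replicate 5 of 28D. The cause was not tested.

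Same-numbered animals of 3D and 14D correlated at -0.24 to 0.40 over genes, 3 of 5 pairs over 0.1, so the numbers are not taken to pair the samples. With the replicate block 5 genes passed and DCN did not, at 1.93 (limma, adjusted p = 0.0620), and 0 of 5 animals correlated best with their own number.

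Reversals of sign were all in genes that did not pass. With Ct alone the differences were 0.83 for COL3A1, 0.99 for ADAMTS-4 and 0.40 for IL-6. With the mean of the target genes they were -0.48 for FMOD, -0.54 for VEGF, -0.35 for SMAD-2, -0.13 for TNMD, -0.54 for SCX, -0.18 for ERG1 and -0.61 for SDC-4. With 1 RPLP0 Ct per animal VEGF was -0.17. With Ct above 35 missing VEGF was -0.22 and IL-6 0.11, and with blank wells at Ct 40 IL-6 was 1.28. On linear values, in multiples of C, the difference was -0.217 for FMOD, -0.025 for VEGF, 0.043 for IL-6, -0.087 for SCX, -0.113 for ERG1 and -0.089 for SDC-4. Without each animal in turn the differences ran from -0.28 to 0.75 for FMOD, -0.25 to 0.56 for VEGF, -0.25 to 0.26 for SDC-4, -0.32 to 0.37 for SCX, -1.21 to 0.14 for COL3A1, -0.18 to 0.15 for IL-6 and -0.73 to 0.079 for ADAMTS-4.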
